A study of Mus musculus with 7 samples.

Results

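True naive CD8+ T cells of neonatal mice were compared with the same sorted population of adult mice by small RNA sequencing. The samples were chosen by their titles, neonatal true naive replicate 1 against adult true naive replicates 1 and 2, so 3 of the 7 libraries in the series made up the comparison. All 7 came from the spleen of gBT-I mice, which carry a transgenic T cell receptor that recognises a herpes simplex virus glycoprotein B peptide, so every group shared that receptor. CD8+ cells were enriched with magnetic beads and sorted at over 95% purity, and the true naive (TN) gate was CD44lo CD122lo. The other 4 libraries, 2 neonatal and 2 adult, held the CD44hi CD122hi virtual memory (VM) cells, memory-like cells that have met no antigen, and they entered the statistical model only to measure the spread between replicates and for 1 later contrast. The labels give the ages as neonatal and adult with no number of days, and they do not say how many animals stood behind a library or whether animals were pooled. The p-values therefore reflect how far apart these particular libraries lie, a spread that may be technical, and the single neonatal TN library was assumed to vary like the other groups. Its values have no SD.

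The TN libraries held 2982273 (neonatal), 2056812 and 2990542 (adult) miRNA counts. Of 1978 mature miRNAs listed, 743 had a count in at least 1 of the 3 TN libraries. The number with a count was 636 in the neonatal library and 524 and 560 in the adult libraries. Levels are given as TMM-scaled CPM, counts relative to the library's total, and the 288 miRNAs that reached 10 CPM in 2 or more of the 7 libraries were tested. In the TN libraries 10 CPM stood for 20.6 to 29.9 counts. The adult TN libraries lay over 2-fold apart at 16 of the 288 miRNAs, and at 1 of the 164 whose mean level was 50 CPM or more (miR-6240, 4.83-fold). The label of a blood cell population was met by miR-142a-5p, which is specific to hematopoietic cells, at 44947 CPM in the neonatal library and 51117 and 43348 CPM in the adult libraries.

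A miRNA is cut from a hairpin transcript as a short duplex, one strand of which is loaded into Argonaute and guides the repression of mRNAs that pair with it. Pairing rests mainly on the seed near the 5′ end of the miRNA, so miRNAs with the same seed are predicted to share targets. In T cells, miR-181a sets the strength of receptor signalling and is abundant in developing thymocytes, miR-150 accumulates as lymphocytes mature and represses Myb, and miR-29 represses T-bet and interferon gamma. The let-7 family accumulates late in development and restrains effector differentiation of CD8+ T cells. The RNA-binding protein LIN28B, present in fetal and perinatal hematopoietic cells, blocks let-7 maturation. Neonatal CD8+ T cells are known to respond faster and to form fewer memory cells than adult ones.

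Mature sequences from RefSeq (GRCm38.p6) are given 5′ to 3′ for the families on which the results turn, with the seed, bases 2 to 8, in capitals. The first set shows 3 of the families whose tested members with an entry all passed the test as higher in neonatal TN cells, miR-181, miR-130 with miR-301, and miR-148:
miR-181a-5p: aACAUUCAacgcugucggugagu
miR-181b-5p: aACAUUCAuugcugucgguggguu
miR-181c-5p: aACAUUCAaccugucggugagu
miR-181d-5p: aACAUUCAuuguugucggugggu
miR-130a-3p: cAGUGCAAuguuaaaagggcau
miR-130b-3p: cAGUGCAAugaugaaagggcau
miR-301a-3p: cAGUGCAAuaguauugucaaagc
miR-148a-3p: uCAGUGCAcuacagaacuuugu
miR-148b-3p: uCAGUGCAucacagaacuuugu

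The second set shows families with members lower in neonatal TN cells. The 3 miR-29 members share the seed AGCACCA, and the let-7 members shown, with miR-98, share GAGGUAG while their levels moved in different directions:
miR-29a-3p: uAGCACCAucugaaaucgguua
miR-29b-3p: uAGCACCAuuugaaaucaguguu
miR-29c-3p: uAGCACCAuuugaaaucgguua
let-7b-5p: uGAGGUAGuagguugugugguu
let-7c-5p: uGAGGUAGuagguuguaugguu
let-7f-5p: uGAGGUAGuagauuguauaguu
let-7i-5p: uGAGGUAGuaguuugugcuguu
miR-98-5p: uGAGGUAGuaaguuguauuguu

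The third set holds miRNAs with the same seed whose levels went opposite ways, miR-351-5p against miR-125a-5p, and miR-322-5p against miR-195a-5p and miR-497a-5p, with the abundant miR-16-5p beside them:
miR-351-5p: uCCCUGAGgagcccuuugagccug
miR-125a-5p: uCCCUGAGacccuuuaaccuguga
miR-322-5p: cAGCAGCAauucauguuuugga
miR-195a-5p: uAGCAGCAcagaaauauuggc
miR-497a-5p: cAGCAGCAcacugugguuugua
miR-16-5p: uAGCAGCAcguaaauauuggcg

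The composition of the miRNA pool differed between the ages. In both adult TN libraries 1 miRNA, miR-150-5p, took 32.9% and 34.0% of all counts, whereas 6.71% of the neonatal counts were miR-150-5p (6.68 to 6.74%, 95% Wilson interval). Such intervals hold counting error alone, because the reads carry no molecular identifiers and so need not be separate molecules. In the neonatal library miR-181a-5p ranked first, with 18.5% of counts (18.5 to 18.6%), against 6.65% and 8.16% and rank 3 in each adult library. The 10 most abundant miRNAs of each library together took 67.9% of the neonatal counts and 77.4% and 78.5% of the adult counts.

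MiR-92a-3p ranked second in every TN library, at 13.5%, 14.6% and 15.2% of counts in the same order. A share depends on the other miRNAs in the pool: over all counts without miR-150-5p, miR-181a-5p took 19.8% against 9.91% and 12.4%, and miR-92a-3p 14.5% against 21.8% and 23.0%. The largest fall in rank among the miRNAs in the first 30 of an adult library was that of miR-29a-3p and let-7c-5p: miR-29a-3p stood at rank 14 and 15 in the adult libraries and at 50 in the neonatal one, and let-7c-5p at 29 and 28 against 61. MiR-181d-5p went the other way, from 62 and 61 to 29. In bulk libraries fewer cells of a type and less RNA per cell cannot be told apart.

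**Figure D1:**
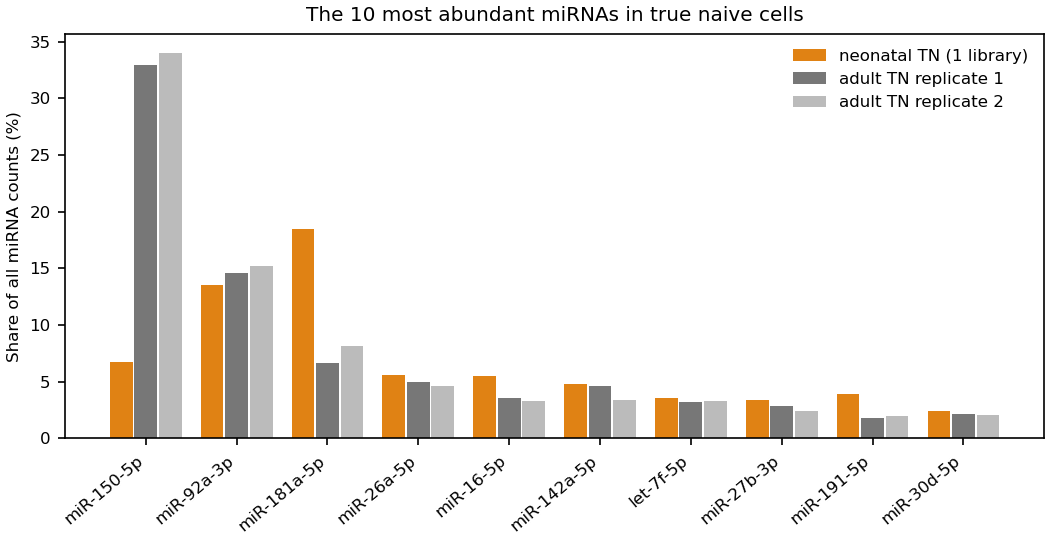
Share of all miRNA counts (%) in the neonatal TN library and the 2 adult TN libraries for the 10 most abundant miRNAs, by the mean of the 2 group means; each bar is 1 library. MiR-150-5p stood at 32.9% and 34.0% in the adult libraries and 6.71% in the neonatal library, and miR-181a-5p at 18.5% in the neonatal library against 6.65% and 8.16%.

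Across the tested miRNAs, 138 of 288 (47.9%) differed between neonatal and adult TN cells (edgeR quasi-likelihood test with a threshold of 0.05 on the Benjamini-Hochberg adjusted p). Of these, 76 (26.4%) were higher and 62 (21.5%) lower in the neonatal library. The difference was at least 2-fold for 65 of the 76 and for 55 of the 62. The median log2 difference over all 288 was 0.04. The split depended on the scaling: library totals alone moved that median by 0.37 and gave 106 higher and 38 lower, and upper quartile factors moved it by -0.31 and gave 56 higher and 79 lower. The count fell with either adult TN library left out. That sets 1 library against 1 and leaves fewer replicates to measure the spread. A call lost in this way, here or below, therefore need not rest on the values of the library left out. Without adult TN replicate 1, 86 miRNAs passed, 84 of them among the 138, and without replicate 2, 83 passed, 82 of them among the 138.

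**Figure D2:**
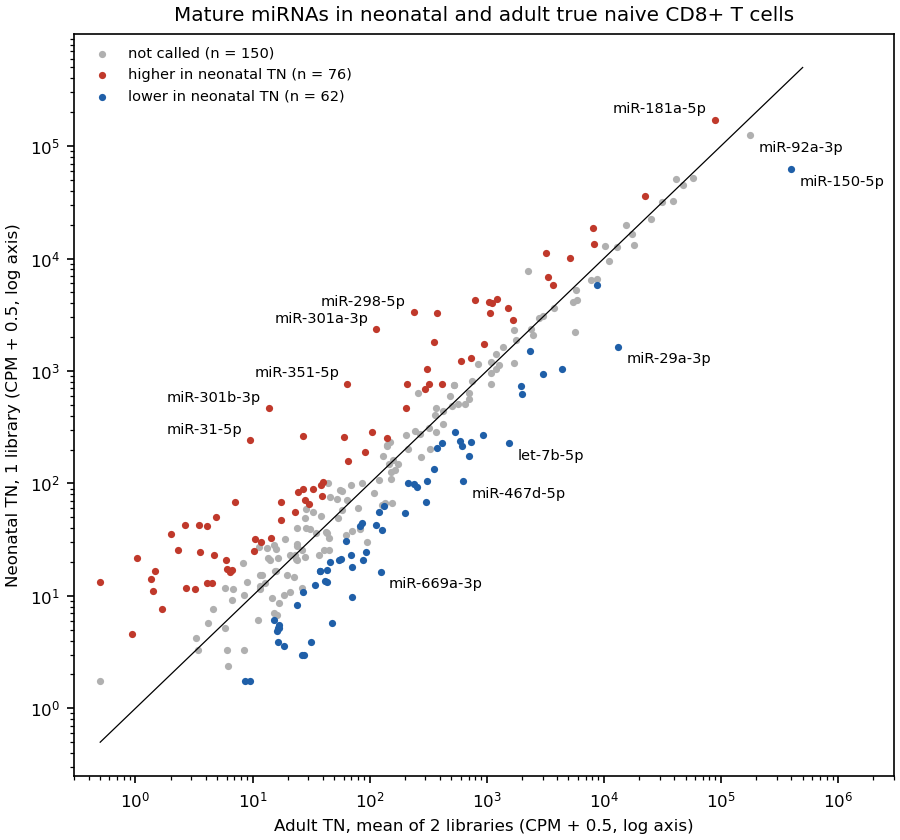
Level of each tested miRNA in the neonatal TN library (y axis) against the mean of the 2 adult TN libraries (x axis), both as TMM-scaled CPM + 0.5 on log axes; colours mark the 76 higher, 62 lower and 150 not called by edgeR. MiR-301b-3p (466 against 10.8 and 15.8 CPM) and miR-31-5p (241 against 9.17 and 8.99 CPM) lie far above the diagonal, and miR-150-5p and miR-29a-3p far below it.

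Where the mean level was 50 CPM or more, the largest increase was that of miR-301b-3p, which shares its family with miR-130 and miR-301a. It stood at 466 CPM in the neonatal TN library and at 10.8 and 15.8 CPM in the adult ones, 34.5-fold higher (log2 difference 5.11, SE 0.29, edgeR adjusted p = 2.00e-07). MiR-31-5p, which T cell receptor signals induce, stood at 241 CPM against 9.17 and 8.99 CPM, 26.4-fold higher (log2 4.72, SE 0.32, edgeR adjusted p = 4.78e-07). For both, the adult libraries were low and close to each other and the neonatal library stood far above them. MiR-301a-3p was at 2370 CPM against 119 and 108 CPM, 20.9-fold higher (log2 4.38, SE 0.34, edgeR adjusted p = 7.03e-06). Its hairpin lies in an intron of Ska2 (GRCm38, chromosome 11, 87113004 to 87113089).

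MiR-298-5p was at 3363 CPM in the neonatal library and 204 and 271 CPM in the adult ones (log2 3.82, SE 0.41, edgeR adjusted p = 1.56e-04). Its hairpin lies at chromosome 2, 174267504 to 174267585, near the imprinted Gnas gene, and overlaps no annotated gene on its own strand. MiR-351-5p, from the X-linked cluster with miR-322, was at 770 CPM against 59.9 and 68.5 CPM (log2 3.58, SE 0.24, edgeR adjusted p = 4.78e-07). MiR-148a-3p rose from 389 and 361 CPM to 3303 CPM (log2 3.14, SE 0.23, edgeR adjusted p = 8.77e-07). It is a miRNA that represses the pro-apoptotic gene Bim in T helper 1 cells, and its hairpin overlaps no annotated gene on its own strand at chromosome 6, 51269812 to 51269910. MiR-146b-5p, whose family dampens NF-kB signalling through Traf6 and Irak1, was at 262 CPM against 25.9 and 27.4 CPM (log2 3.29, SE 0.30, edgeR adjusted p = 5.30e-06).

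The remaining 8 of the 15 largest increases ran from log2 2.43 (miR-181d-5p) to 1.80 (miR-181b-5p). The opposite strands of 2 miR-181 hairpins were among them: miR-181a-2-3p stood at 1813 CPM against 292 and 410 CPM, and miR-181c-3p at 773 CPM against 179 and 237 CPM. MiR-182-5p, which represses Foxo1 and is induced by interleukin 2, was at 4007 CPM against 1004 and 1197 CPM, and miR-183-5p of the same cluster at 257 CPM against 61.5 and 58.2 CPM. The neonatal value exceeded both adult values for all 15, and each stayed past the threshold under every alternative setting in which it was tested, up to 19 settings.

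Where the mean level was 50 CPM or more, the largest decrease was that of miR-29a-3p. It stood at 1643 CPM in the neonatal TN library and at 14080 and 12342 CPM in the adult ones, 8.04-fold lower (log2 -3.01, SE 0.25, edgeR adjusted p = 2.89e-06). For miR-150-5p the neonatal library held 62258 CPM and the adult libraries 365659 and 435180 CPM, a 6.43-fold lower level (log2 -2.69, SE 0.23, edgeR adjusted p = 2.89e-06). In both miRNAs the adult libraries lay close together and the neonatal library lay several-fold under them. Let-7b-5p was at 228 CPM against 1322 and 1802 CPM (log2 -2.78, SE 0.30, edgeR adjusted p = 2.26e-05), and let-7c-5p at 1051 CPM against 3995 and 4748 CPM (log2 -2.06).

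MiR-139-5p, a miRNA of resting T cells, was at 267 CPM in the neonatal library against 856 and 1015 CPM (log2 -1.81), and its hairpin lies in an intron of Pde2a (chromosome 7, 101475376 to 101475443). MiR-30b-5p was at 944 CPM against 2963 and 3092 CPM (log2 -1.68). Both adult values lay above the neonatal one for each of the 15 largest decreases, which ran from log2 -3.01 to -1.68. The others were miR-669a-3p, miR-467d-5p, miR-29c-3p, miR-467e-5p, miR-361-3p, miR-3963, miR-3535, miR-872-3p and miR-3968. The miR-3535 entry, under the gene name Gm24148, lies in an exon of Ncl, the nucleolin gene (chromosome 1, 86351981 to 86352127). Small nucleolar and other short RNA genes were left out of the host search. Whether the reads of these entries come from such RNAs was not tested. All 15 likewise stayed past the threshold wherever they were tested.

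**Figure D3:**
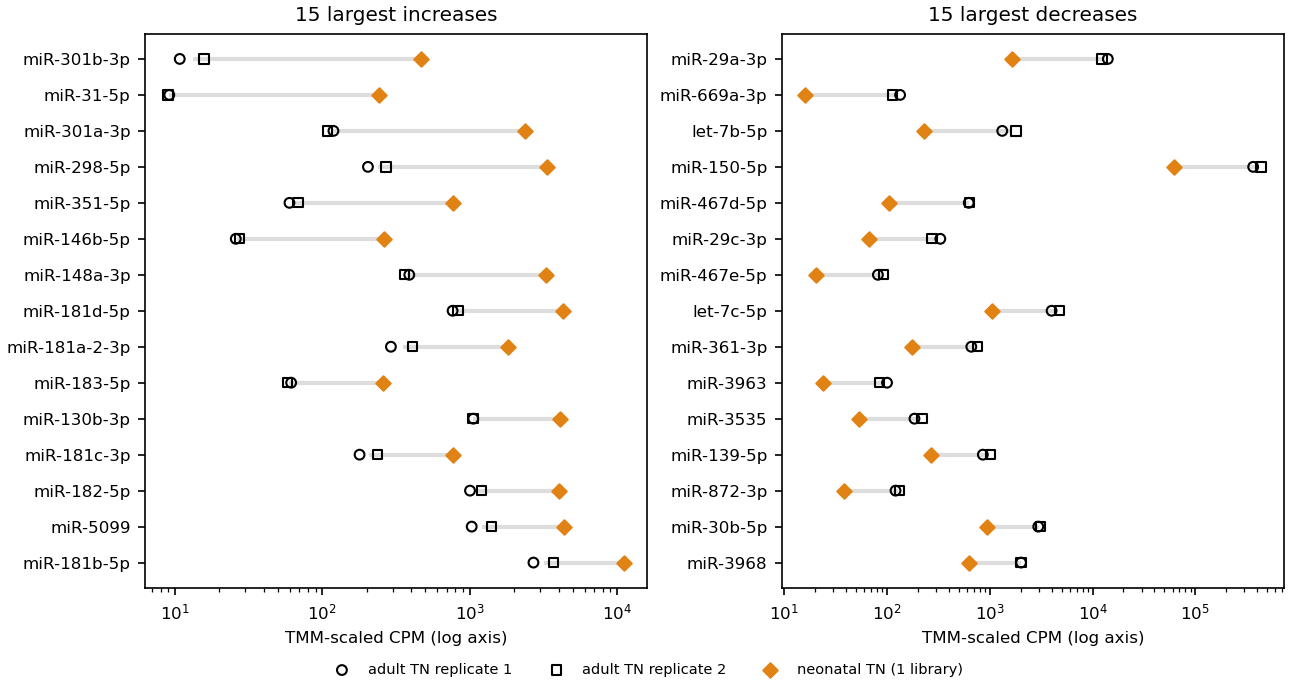
Levels (TMM-scaled CPM, log axis) of the 15 largest increases (left) and the 15 largest decreases (right) among called miRNAs whose mean level was 50 CPM or more; each point is 1 library, neonatal TN or adult TN. In every row the neonatal point lies outside the pair of adult points, from 466 against 10.8 and 15.8 CPM for miR-301b-3p to 1643 against 14080 and 12342 CPM for miR-29a-3p.

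Most of the abundant miRNAs did not pass the test. MiR-92a-3p, of the miR-17-92 cluster that drives lymphocyte proliferation, had a log2 difference of -0.51 (edgeR adjusted p = 0.0605), and it passed as lower under 10 of 19 alternative settings. These included RLE factors (-0.53, edgeR adjusted p = 0.0334), upper quartile factors (-0.82, edgeR adjusted p = 0.00972), adult TN replicate 1 left out (-0.76, edgeR adjusted p = 0.0391) and either adult VM library left out (-0.55 each, edgeR adjusted p = 0.0209 and 2.33e-04). For miR-26a-5p it was -0.15, for miR-16-5p 0.32, for miR-142a-5p -0.07, for let-7f-5p -0.26, for miR-27b-3p 0.01 and for miR-30d-5p -0.17. Of these 6, let-7f-5p passed as lower without adult VM replicate 2 (-0.29, edgeR adjusted p = 0.0487), and miR-16-5p as higher with library totals alone (0.68, edgeR adjusted p = 0.00835) and in the 3 TN libraries alone (0.48, edgeR adjusted p = 0.0155). MiR-181a-5p passed, with 171813 CPM against 73769 and 104380 CPM (log2 0.95, SE 0.23, edgeR adjusted p = 0.00551), but without adult TN replicate 1 its difference was 0.59 (edgeR adjusted p = 0.09). MiR-191-5p also passed (log2 0.69), and it lost its call without adult TN replicate 1 (0.39, edgeR adjusted p = 0.199). It also did so without either neonatal VM library (0.60 each, edgeR adjusted p = 0.1 and 0.0985). Some large differences did not pass. MiR-744-5p stood at 7778 CPM in the neonatal library and 1913 and 2566 CPM in the adult ones (log2 1.80, SE 0.65, edgeR adjusted p = 0.0812), where the adult VM libraries that enter the pooled spread lay at 1375 and 438 CPM. It passed without adult VM replicate 1 (1.76, edgeR adjusted p = 6.47e-16) or 2 (1.76, edgeR adjusted p = 1.69e-35).

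Families were defined by name, but they were chosen with earlier results of these data known. MiR-130 with miR-301 and miR-181 each had all 4 tested members higher, where 26.4% of all tested miRNAs were. Their median log2 differences were 4.40 and 1.5, beside 0.04 for all tested miRNAs. In the first, miR-130b-3p stood at 4093 CPM against 1056 and 1052 CPM (log2 1.96). MiR-130a-3p rested on 137 counts against 8 and 0, and its call was lost under 8 of 17 alternative settings. These included DESeq2 (log2 4.25, DESeq2 adjusted p = 0.0786), no filter (4.22), filterByExpr (4.33) and upper quartile factors (4.10). The call was also lost without adult TN replicate 2 (3.17) and without either neonatal VM library (4.33 and 4.32). With upper quartile factors 3 of the 4 members of its family were higher. In the miR-181 family the size of the increase ran inversely to abundance. MiR-181d-5p rose by log2 2.43 (4289 CPM against 765 and 831), miR-181b-5p by 1.80 (11117 against 2704 and 3682), miR-181c-5p by 1.2 (18662 against 7428 and 8874) and miR-181a-5p by 0.95 (without adult TN replicate 1, 0.59, edgeR adjusted p = 0.09).

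Over all tested miRNAs 26.4% were higher and 21.5% lower, and the next 2 families stand beside those shares. The miR-148 family had both tested members higher, miR-148a-3p and miR-148b-3p, the latter at 3287 CPM against 948 and 1193 CPM (log2 1.62, edgeR adjusted p = 1.28e-04). The third member, miR-152-3p, had 4 counts against 0 and 1 and was not tested. In the miR-29 family 2 of 3 members were lower, and miR-29b-3p, at 37.3 CPM against 80.9 and 59.1 CPM, did not pass (log2 -0.90, edgeR adjusted p = 0.162), although it did without adult VM replicate 1 (-0.93, edgeR adjusted p = 0.0102) or 2 (-0.95, edgeR adjusted p = 0.00934). Summed over its members the miR-29 family stood at 1748 CPM in the neonatal library and 14491 and 12674 CPM in the adult ones, of which miR-29a-3p made up the larger part in each library.

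The families encoded in an intron of Sfmbt2 (miR-466, miR-467, miR-669 and miR-297) are numerous, near-identical miRNAs specific to rodents. Of 80 listed, 21 were tested, 0 were higher and 14 were lower, where 26.4% and 21.5% of all tested miRNAs were, with a median log2 difference of -1.64 beside 0.04. MiR-467d-5p stood at 104 CPM against 624 and 631 CPM (log2 -2.59), and miR-669a-3p at 15.9 CPM against 134 and 113 CPM (log2 -2.96). Their reads can be shared between copies, so single members are uncertain and the 14 are not independent. With library totals alone 8 of the 21 were lower. Without adult TN replicate 1, miR-466f-3p (-1.86), miR-467a-3p (-1.29) and miR-467b-5p (-1.56) lost their calls, and without replicate 2, miR-466b-3p (-1.67) and miR-466f-3p (-1.65).

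Of the 3 related clusters miR-17-92, miR-106a-363 and miR-106b-25, in the first 1 of 6 members was higher (26.4% of all tested miRNAs were), miR-18a-5p, at 89.3 CPM against 37.2 and 27.8 CPM (log2 1.46), and that call was lost without adult TN replicate 1 (1.56, edgeR adjusted p = 0.0542) or replicate 2 (1.14, edgeR adjusted p = 0.126). In the X-linked miR-106a-363 cluster 2 of 4 were higher, miR-18b-5p at 41.7 CPM against 5.94 and 1.28 CPM (log2 3.59) and miR-363-3p at 1229 CPM against 588 and 607 CPM (log2 1.04). In the miR-106b-25 cluster 0 of 3 passed, with log2 differences of 0.16 for miR-106b-5p, 0.34 for miR-93-5p and -0.09 for miR-25-3p. MiR-93-5p passed without adult VM replicate 2 (0.30, edgeR adjusted p = 0.0357). In the miR-30 family, miR-30a-5p (log2 1.27) and miR-30e-5p (0.96) were higher and miR-30b-5p lower. The call of miR-30a-5p was lost without adult TN replicate 2 (1.2, edgeR adjusted p = 0.0522), and that of miR-30e-5p without replicate 1 (0.88, edgeR adjusted p = 0.0556) or 2 (0.80, edgeR adjusted p = 0.0931).

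**Figure D4:**
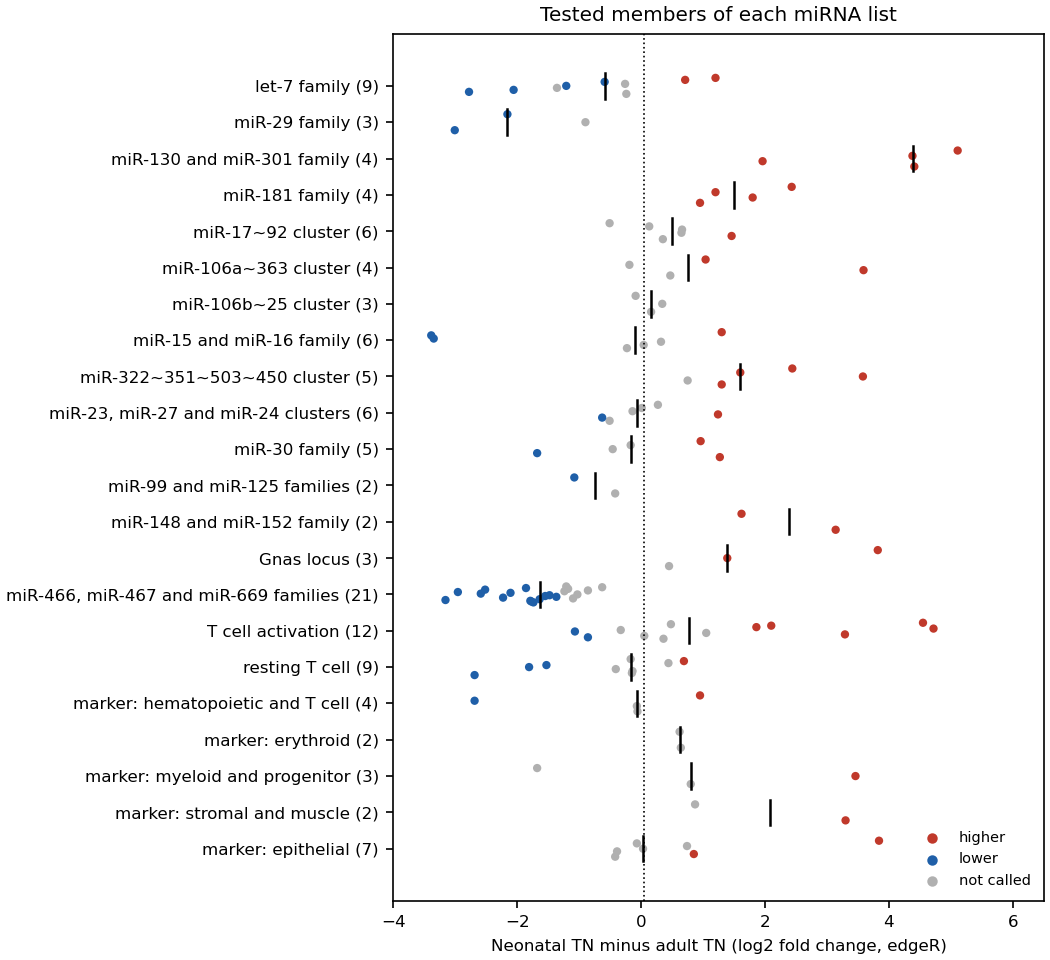
Log2 fold change (edgeR, neonatal TN minus adult TN) of each tested member of each miRNA list, with the number tested in brackets; points are miRNAs, colours mark calls, and the dotted line is the median of all 288 tested miRNAs (0.04). The miR-130 with miR-301 and miR-181 lists lie wholly to the right, the miR-29 list and the miR-466, miR-467 and miR-669 families to the left, and the let-7 list spreads over both sides.

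The let-7 family split. Of its 9 members (let-7a to let-7g, let-7i and miR-98), 4 were lower, 2 were higher and 3 did not pass, beside 21.5% lower and 26.4% higher over all tested miRNAs, and the median log2 difference was -0.59. Let-7b-5p and let-7c-5p, whose hairpins Mirlet7b and Mirlet7c-2 lie together on chromosome 15 (85706603 to 85707403), fell by 2.78 and 2.06 on the log2 scale. Let-7e-5p (-1.21, 19.6 CPM against 48.0 and 42.8) and let-7g-5p (-0.59, 5779 CPM against 8512 and 8872) were also lower. Let-7i-5p was higher, at 13594 CPM against 8257 and 8355 CPM (log2 0.71, edgeR adjusted p = 0.0146), and miR-98-5p was at 686 CPM against 297 and 300 CPM (log2 1.2, edgeR adjusted p = 0.0146). In each case the neonatal value lay outside the 2 adult values, which were close together.

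The most abundant member, let-7f-5p, stood at 32777 CPM against 36147 and 42230 CPM and did not pass. Let-7d-5p, at 2209 CPM against 5357 and 6017 CPM, did not pass either (log2 -1.36, SE 0.53, edgeR adjusted p = 0.0783). The adult VM libraries that enter the pooled spread lay at 3553 and 1392 CPM for it. Let-7d-5p passed as lower under 8 of 19 alternative settings, DESeq2 among them (-1.39). Summed over the family, the neonatal library held 65755 CPM and the adult libraries 73919 and 84618 CPM (log2 -0.27, SE 0.17, edgeR adjusted p = 0.202; 0.09 with library totals alone). That sum passed as lower without adult TN replicate 1 (-0.49, edgeR adjusted p = 0.0332) and with upper quartile scaling (-0.58). Only the calls of let-7b-5p and let-7c-5p among the 6 held under every alternative setting. Without adult TN replicate 1 the differences were -1.25 for let-7e-5p, -0.74 for let-7g-5p, 0.58 for let-7i-5p and 1.07 for miR-98-5p, and none of these 4 passed. Without replicate 2, let-7g-5p (-0.68), let-7i-5p (0.59) and miR-98-5p (1.08) did not pass, and without either neonatal VM library let-7g-5p (-0.68 each) and let-7i-5p (0.62 each) did not.

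The tested opposite strands of the let-7 hairpins were present at low level, except for let-7d-3p. That strand stood at 738 CPM in the neonatal library and 1782 and 2169 CPM in the adult ones. It was lower in the neonatal library (log2 -1.42, edgeR adjusted p = 7.12e-04), and its seed, UAUACGA, is not that of the strands summed next. The seed UAUACAA is shared by let-7a-1-3p, let-7b-3p, let-7c-2-3p, let-7f-1-3p and miR-98-3p. Summed, they stood at 68.8 CPM in the neonatal library and 240 and 199 CPM in the adult ones (log2 -1.67, SE 0.28, edgeR adjusted p = 1.18e-04), and 4 of the 5 were lower by themselves, beside 21.5% of all tested miRNAs; miR-98-3p did not pass (log2 -0.34), nor did let-7g-3p (-1.51, edgeR adjusted p = 0.167), which is not in that sum. Let-7f-1-3p was at 5.29 CPM against 54.5 and 40.7 CPM (log2 -3.15), and let-7b-3p at 9.34 CPM against 72.9 and 68.1 CPM (log2 -2.91). Let-7a-1-3p and let-7c-2-3p carried the same values in each TN library (16.2 against 42.1 and 31.7 CPM), so their reads cannot be told apart and they count as 1 observation, and they did not pass without adult TN replicate 1 (-1.09, edgeR adjusted p = 0.128) or 2 (-1.5, edgeR adjusted p = 0.0538). Let-7i-3p was lower (16.5 CPM against 39.9 and 44.9 CPM, log2 -1.36) while let-7i-5p was higher. This was the 1 hairpin of 66 with both arms tested whose arms were called in opposite directions, and neither call held without adult TN replicate 2 (let-7i-3p -1.40, edgeR adjusted p = 0.0628; let-7i-5p 0.59, edgeR adjusted p = 0.127). Let-7i-5p also did not pass without adult TN replicate 1 (0.58) or without either neonatal VM library (0.62 each).

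Mature sequences were matched for 236 of the 288 tested miRNAs, and counts were summed over miRNAs with the same seed. Of 181 seed families tested, 89 (49.2%) passed, 56 (30.9%) higher and 33 (18.2%) lower in the neonatal library. The sums leave out miRNAs with no entry, such as miR-301b-3p and miR-30b-5p. They also leave out miRNAs whose only entries lie on a chromosome that was set aside before the matching. With either adult TN library left out, 59 families passed. The seed of miR-130a-3p, miR-130b-3p and miR-301a-3p (AGUGCAA) stood at 6505 CPM against 1179 and 1160 CPM (log2 2.48, SE 0.21, edgeR adjusted p = 2.72e-08), and that of miR-148 (CAGUGCA) at 6591 CPM against 1337 and 1555 CPM (log2 2.19). The miR-181 seed ACAUUCA, the most abundant of these, stood at 205880 CPM against 84666 and 117767 CPM (log2 1.02, SE 0.19, edgeR adjusted p = 2.18e-04).

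Of the 30 families with at least 2 tested members, 5 had all members higher, 0 had all members lower, 4 held members called in both directions, 12 had some called in 1 direction and 9 had none called. The seed CCCUGAG is shared by miR-351-5p, which rose, and miR-125a-5p, which fell from 196 and 232 CPM to 101 CPM (log2 -1.08; without adult TN replicate 2, -1.07, edgeR adjusted p = 0.0522). Their sum was higher in the neonatal library, 873 CPM against 256 and 303 CPM (log2 1.64, edgeR adjusted p = 1.96e-05). The larger member of that pair was miR-125a-5p in both adult libraries and miR-351-5p in the neonatal one.

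The seed AGCAGCA of the miR-15 and miR-16 family held 6 tested members. MiR-322-5p was higher, at 158 CPM against 59.4 and 69.3 CPM (log2 1.30; without adult TN replicate 1, 1.07, edgeR adjusted p = 0.0577). MiR-195a-5p (2.49 CPM against 25.9 and 25.7, log2 -3.35) and miR-497a-5p (2.49 CPM against 33.5 and 20.1, log2 -3.39), neighbours on chromosome 11 (70234717 to 70235135), were lower. MiR-16-5p made up most of the family, and the sum did not pass (55703 CPM against 44258 and 46504 CPM, log2 0.30, edgeR adjusted p = 0.16; -0.01 with upper quartile factors).

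Of the 66 hairpins with both arms tested, 10 had both arms higher, 8 both lower, 26 had 1 arm called and 21 neither. The absolute difference between the log2 changes of the arms had a median of 0.69, and for 20 hairpins it was over 1. The largest example by abundance was miR-150: miR-150-5p fell by 2.69 on the log2 scale, while miR-150-3p stood at 1141 CPM in the neonatal library and 1183 and 1370 CPM in the adult ones (log2 -0.16, edgeR adjusted p = 0.774). For miR-361, in an intron of Chm on the X chromosome (113074824 to 113074893), the 5p arm made up 74.5% of both arms in the neonatal library and 44.6% and 44.3% in the adult ones, with the 3p arm at 175 CPM against 661 and 765 CPM. For miR-872, in an intron of Ift74 on chromosome 4 (94665157 to 94665237), the 5p share was 82.2% against 54.1% and 46.8%. In both hairpins the 3p arm was called lower and the 5p arm did not pass, with log2 differences of -0.16 for miR-361-5p and 0.43 for miR-872-5p.

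Hairpins within 10 kb of each other on the same strand formed 25 clusters with at least 2 hairpins of tested miRNAs. Hairpins on the chromosome set aside before the matching are not among them. In 1 all tested miRNAs were higher (Mir181a-2 with Mir181b-2, chromosome 2, 38852735 to 38853918), and in 3 all were lower: Mir497 with Mir195a, Mirlet7c-2 with Mirlet7b, and Mirlet7e with Mir125a (chromosome 17, 17830352 to 17830879). In 4 members were called in both directions, in 11 some were higher and none lower, in 5 some were lower and none higher, and in 1 none was called. The members of Mir23a, Mir27a and Mir24-2 on chromosome 8 (84208518 to 84208921) ran from log2 -1.41 to 1.24. There miR-24-3p, which a second locus also encodes, was at 763 CPM against 296 and 350 CPM (log2 1.24; without adult TN replicate 1, log2 1.0, edgeR adjusted p = 0.0556). Mature sequences made from 2 loci, such as miR-181a-5p, miR-24-3p and miR-29b-3p, cannot be assigned to 1 of them. Among the clusters named, let-7e-5p and miR-181a-5p also lost their calls without adult TN replicate 1 (-1.25 and 0.59) and miR-125a-5p without replicate 2 (-1.07). Let-7c-2-3p lost its call without replicate 1 (-1.09) or 2 (-1.50), and so did miR-27a-3p (-0.66 and -0.84).

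The list of miRNAs linked to T cell activation had 12 of 14 tested, 5 higher and 2 lower, with a median log2 difference of 0.76. Over all tested miRNAs 47.9% were called, so 7 of 12 is not far from that share. Higher were miR-31-5p, miR-146b-5p, miR-182-5p, miR-183-5p and miR-210-3p. The last, a miRNA induced by hypoxia, stood at 34.9 CPM against 2.16 and 0.856 CPM, or 112 counts against 4 and 2 (log2 4.55, edgeR adjusted p = 7.87e-05). Lower were miR-155-5p, the classical activation miRNA, at 206 CPM against 380 and 367 CPM (log2 -0.86), and miR-221-3p, at 62.2 CPM against 143 and 119 CPM (log2 -1.07). With library totals alone neither passed (-0.50 and -0.72), and without adult TN replicate 1 miR-221-3p did not (-1.06, edgeR adjusted p = 0.0654). MiR-21a-5p (0.36) and miR-146a-5p (0.05) did not pass, the former passing without adult VM replicate 2 (0.31, edgeR adjusted p = 0.0305). Of 9 miRNAs abundant in resting T cells, 3 were lower (miR-150-5p, miR-139-5p and miR-101a-3p), 1 was higher (miR-191-5p), a share called near that of all tested miRNAs (47.9%), and the median was -0.17, which became 0.19 with library totals alone.

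At the imprinted Gnas locus 2 of the 3 tested miRNAs were higher, beside 26.4% of all tested miRNAs. These were miR-298-5p and miR-296-3p. The latter was at 103 CPM against 39.9 and 38.5 CPM (log2 1.39) and lost its call without adult TN replicate 1 (1.29, edgeR adjusted p = 0.179) or 2 (1.24, edgeR adjusted p = 0.191). In the X-linked cluster of miR-322, miR-351, miR-503 and miR-450, 4 of 5 tested were higher. The median log2 difference was 1.6, beside 0.04 over all tested miRNAs. With upper quartile factors 3 of these 5 were higher, and 1 of the 3 at the Gnas locus. MiR-450b-5p, at 22.4 CPM against 5.4 and 3 CPM, lost its call without adult TN replicate 2 (1.92, edgeR adjusted p = 0.0608). MiR-450a-5p, at 16.8 CPM against 5.94 and 5.14, lost it without replicate 1 (1.58, edgeR adjusted p = 0.112) or 2 (1.37, edgeR adjusted p = 0.173) and without neonatal VM replicate 1 (1.51, edgeR adjusted p = 0.0579). None of 37 miRNAs of the imprinted Dlk1-Dio3 locus passed the abundance filter. Their highest level was that of miR-127-3p, 11.2 CPM in the neonatal library against 0.54 and 1.71 CPM.

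Markers of other cells reached at most 273 CPM in a TN library, in the epithelial list. Some were called higher in the neonatal library, where 26.4% of all tested miRNAs were. The erythroid miR-451a stood at 9.65 CPM against 2.16 and 2.14 CPM and miR-144-3p at 0.622 CPM against 0 and 0. Of 5 erythroid markers 2 were tested and 0 passed, and their sum was 446 CPM against 243 and 325 CPM. The 2 tested, the near-identical miR-486a-5p and miR-486b-5p, passed as higher without adult VM replicate 1 (0.60 and 0.58) or 2 (0.60 and 0.59). They also did so with library totals alone (1.01 and 0.99) and in the 3 TN libraries alone (0.79 and 0.77). For the myeloid and progenitor list, 1 of 3 tested was higher, with a sum of 88.7 CPM against 77.2 and 133 CPM. That miRNA was miR-126a-5p (49.8 CPM against 3.24 and 5.56 CPM, log2 3.46), while the defining miR-223-3p was at 1.56 CPM against 2.16 and 1.71 CPM. Its opposite strand miR-126a-3p did not pass (7.16 CPM against 4.86 and 3.42 CPM, log2 0.80). MiR-10a-5p lay the other way (29.6 CPM against 66.9 and 122 CPM, log2 -1.68, edgeR adjusted p = 0.0862) and passed as lower under 6 of 19 alternative settings. For the stromal and muscle list, 1 of 2 tested was higher, miR-143-3p (67.2 CPM against 4.32 and 8.99 CPM, log2 3.3), with miR-145a-5p at 0.311 CPM against 0 and 0, and the sum was 98.3 CPM against 15.6 and 30.4 CPM. For the epithelial list 2 of 7 were higher, near the share of all tested miRNAs (26.4%). They were miR-205-5p (24.9 CPM against 3.24 and 0.428 CPM) and miR-200b-3p (252 CPM against 137 and 144 CPM). The sum of the list was 903 CPM against 761 and 773 CPM. The call of miR-200b-3p was lost without adult TN replicate 1 (0.69, edgeR adjusted p = 0.153) or 2 (0.76, edgeR adjusted p = 0.117). The part of other cells in the results on low miRNAs was not tested.

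Of miRNAs with 0 counts in both adult TN libraries and at least 10 in the neonatal one, there were 2. MiR-190a-5p had 41 counts (12.8 CPM), at least 7.88-fold higher against a floor of 3 counts per library, and its hairpin lies in an intron of Tln2 (chromosome 9, 67236660 to 67236726). MiR-132-5p had 15 counts (4.67 CPM), at least 2.88-fold higher. No miRNA had at least 10 counts in both adult libraries and 0 in the neonatal one. Over the called miRNAs with a sequence, the median GC content was 47.7% for the 66 higher, 45.5% for the 45 lower and 50.0% for the 125 not called. The first base was U in 40.9%, 57.8% and 38.4% of them.

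The age difference in TN cells was set against that in VM cells, and the 2 differences share no library. Of the 76 miRNAs higher in neonatal TN cells, 50 were also called higher in neonatal VM cells, 23 were not called there and 3 were lower. Of the 62 lower in TN, 51 were lower in VM, 11 were not called and 0 were higher. Over all 288, 22.9% were called higher and 30.9% lower in neonatal VM cells. A call in 1 subset and none in the other does not show a difference, so the difference itself was tested, and it passed for 23 of 288 miRNAs (7.99%; edgeR). That count was 9 and 6 without adult TN replicate 1 and 2, 13 and 15 without neonatal VM replicate 1 and 2, and 86 and 59 without adult VM replicate 1 and 2.

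The 3 called in opposite directions were miR-30a-5p, miR-30a-3p and miR-7a-5p, the last named after its values were seen. MiR-30a-5p stood at 3646 CPM in neonatal TN and 1451 and 1572 CPM in adult TN, and at 3641 and 3906 CPM in neonatal VM and 11040 and 16902 CPM in adult VM. Its age difference was 1.27 in TN and -1.89 in VM on the log2 scale (edgeR adjusted p of the difference = 8.57e-05), and the TN difference alone did not pass without adult TN replicate 2 (1.2, edgeR adjusted p = 0.0522). Those of miR-30a-3p and miR-7a-5p did not pass without adult TN replicate 1 (1.26 and 1.24) or 2 (1.37 and 1.27). The TN call of miR-7a-5p was lost under 9 of 18 alternatives, among them RLE factors, DESeq2 and limma voom (1.36 each). For miR-30a-5p the neonatal values of the subsets were close to each other, and the adult values were not. MiR-182-5p showed a rise in TN (log2 1.86) and none that passed in VM (-0.37), with 3460 and 3600 CPM in neonatal VM against 4180 and 4969 CPM in adult VM (edgeR adjusted p of the difference = 6.31e-04). For miR-151-3p the TN difference did not pass (0.42; without adult VM replicate 2, 0.39, edgeR adjusted p = 0.0155), with 2305 CPM against 1513 and 1924 CPM, and the VM difference was -2.82, with 435 and 375 CPM against 2701 and 3035 CPM (edgeR adjusted p of the difference = 6.48e-05). MiR-146b-5p rose by 3.29 in TN and by 0.64 in VM (edgeR adjusted p of the difference = 0.00108).

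MiR-150-5p fell in both subsets and by more in TN (-2.69 against -1.6; edgeR adjusted p of the difference = 0.0293). Adult TN cells held 365659 and 435180 CPM of it and adult VM cells 229398 and 207898 CPM, while neonatal TN held 62258 CPM and neonatal VM 77562 and 66475 CPM. That difference did not pass without adult TN replicate 2 or without neonatal VM replicate 1. MiR-301b-3p also rose by more in TN (5.11 against 3.62, edgeR adjusted p of the difference = 0.0323), and it did not pass without any 1 of the adult TN or neonatal VM libraries.

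**Figure D5:**
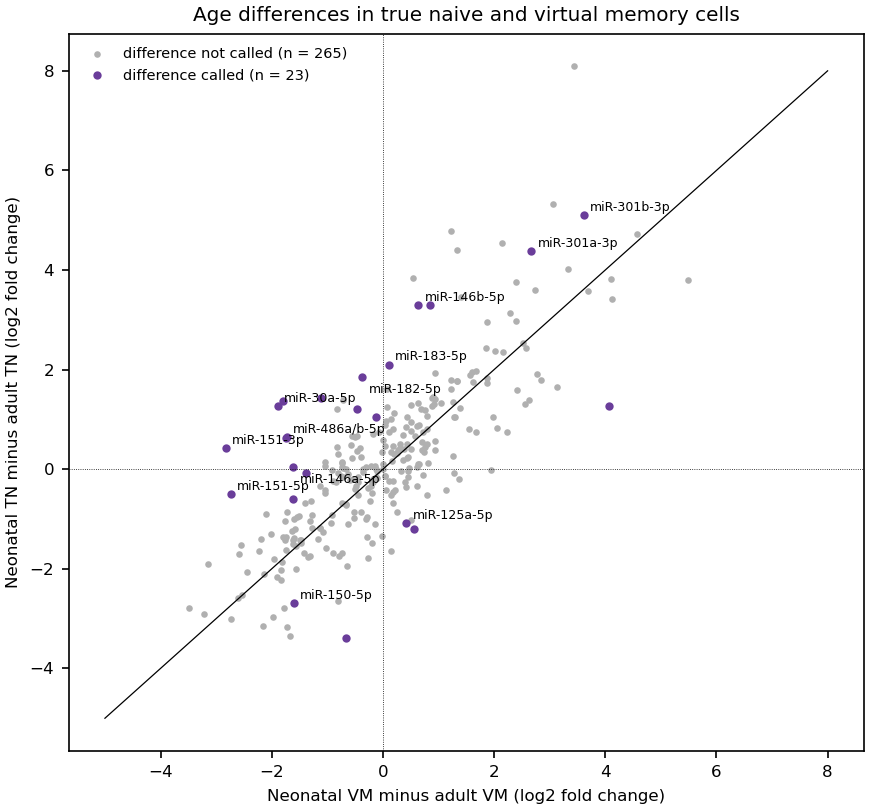
Log2 fold change with age (edgeR, neonatal minus adult) in TN cells (y axis) against VM cells (x axis) for the 288 tested miRNAs; coloured points passed the test of the difference between the subsets, and labels name most of those whose mean level was 50 CPM or more. MiR-30a-5p lies at 1.27 in TN and -1.89 in VM, miR-151-3p at 0.42 and -2.82, and miR-150-5p at -2.69 and -1.6; the point at the top, miR-190a-5p, has 0 counts in both adult TN libraries, so its position depends on the prior count.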

How the data were processed

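Small RNA libraries of TN and VM CD8+ T cells were made with the Illumina TruSeq kit, per the labels' protocols. One table of estimated counts, fractional and listed per mature miRNA and precursor, was deposited by the authors. The submitters' processing notes name the build mm10; which aligner and counter were used is not given in the sources used here. The table's 2128 lines were summed to 1978 mature names and rounded (shifts of up to 0.5). Groups follow the library titles.

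The test was edgeR 4.0.16 (R 4.3.3), quasi-likelihood with robust dispersions and TMM factors, on the 288 miRNAs that reached 10 CPM in 2 or more libraries. It used a cell means model over all 7 libraries (3 residual degrees of freedom) with Benjamini-Hochberg adjustment at 0.05. Each SE was worked back from the test, as the absolute log2 difference divided by the square root of the quasi-likelihood F. Library totals ran from 1577031 to 3278449 counts, so low miRNAs rest on few reads. Named miRNAs were the 15 largest increases and 15 largest decreases past the test whose mean level was 50 CPM or more, the 10 most abundant, interaction calls at that level, list members and miRNAs detected at 1 age. Precursor arms, clusters and lists are described without a test. Seed-family sums used the same test with the full library sizes.

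The members, lists and tests were chosen with earlier results of these data known. Alternatives were other scalings, filters, DESeq2 1.42.0, limma 3.58.1 voom, a block for the replicate number, dispersions without the robust option, the 3 TN libraries alone, the largest precursor value per name and each library but the neonatal TN one left out; some settings for seed families and the TN against VM contrast were added after seeing the data. The scripts were tested on simulated data. Sequences are from RefSeq (GRCm38.p6), and coordinates and host genes from GENCODE M21 on GRCm38. Entries of a chromosome that was set aside were left out of seed sums, clusters and coordinates. The host search left out short RNA genes such as small nucleolar RNAs. Neither reads, isomiRs nor targets were analysed here.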

Additional observations from a re-analysis of the deposited data

Results flagged for a closer look

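For 18 miRNAs whose mean level was 50 CPM or more, the difference between neonatal and adult cells was not the same in TN and VM cells, by an edgeR test of the difference between the age differences. The values below are the log2 age difference in TN minus that in VM, with SE where given.

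Those that held under all 18 alternatives run were miR-151-3p (3.25, SE 0.31), miR-30a-5p (3.16, SE 0.33), miR-182-5p (2.24, SE 0.30), miR-146b-5p (2.65, SE 0.39), miR-486a-5p (2.37, SE 0.35) and miR-486b-5p (2.36, SE 0.36). The last 2 are near-identical copies with nearly the same counts, so they are 1 observation. MiR-486a-5p stood at 220 CPM in neonatal TN against 121 and 162 CPM in adult TN, and at 86.0 and 76.8 CPM in neonatal VM against 246 and 294 CPM in adult VM. It is also an erythroid marker, and the part of other cells in its value was not tested. The 2 arms of miR-151 went together, with miR-151-5p at 2.24, and so did those of miR-30a, with miR-30a-3p at 2.56. MiR-183-5p, from the cluster of miR-182, was at 1.99. Without adult TN replicate 2, miR-151-5p, miR-30a-3p and miR-183-5p did not pass, nor did miR-30a-3p without adult TN replicate 1.

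MiR-146a-5p (1.66) stood at 438 CPM in neonatal TN against 371 and 471 CPM in adult TN, and at 750 and 840 CPM in neonatal VM against 2817 and 2031 CPM in adult VM. MiR-203-3p (1.31) likewise stood at 202 CPM against 208 and 217 CPM in TN and at 254 and 240 CPM against 611 and 679 CPM in VM. Both lost their calls with adult TN replicate 1, adult TN replicate 2 or neonatal VM replicate 1 left out, miR-203-3p also without neonatal VM replicate 2.

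Values below zero, a larger fall or smaller rise in TN, were found for miR-150-5p (-1.08) and miR-125a-5p (-1.50). The other values were 1.49 for miR-301b-3p, 1.72 for miR-301a-3p, 1.16 for miR-192-5p, 1.03 for let-7g-5p and 1.66 for miR-98-5p. Of these 7, each lost its call without adult TN replicate 2. Of the 18 alternatives, the call was lost under 2 for miR-150-5p, 4 for miR-125a-5p and 8 for miR-301b-3p. It was lost under 10 each for miR-192-5p and miR-301a-3p, 11 for let-7g-5p and 12 for miR-98-5p. For miR-192-5p, miR-301a-3p, let-7g-5p and miR-98-5p these included RLE factors, library totals alone and upper quartile factors.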

How the results depend on the processing

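The 15 largest increases and 15 largest decreases stayed past the threshold under every one of the 19 alternatives in which they were tested, and none reversed. Of 142 miRNAs followed, 81 were called, of which 48 held under every alternative in which they were tested, 33 were lost under at least 1 and 0 reversed. Of those not called, 32 were called under at least 1.

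The count of 138 became 69 with a 100 CPM filter, which tests fewer miRNAs, and 83 to 179 with 1 library left out. The 76 higher became 42 with that filter and 40 to 94 with 1 library left out. The 62 lower became 38 with library totals alone, 27 with the 100 CPM filter and 43 to 85 with 1 library left out. The 89 seed families became 44 with the 100 CPM filter and 59 to 110 with 1 library left out. The 23 miRNAs that differed between subsets became 43 with no filter, 43 with filterByExpr, 37 with DESeq2 and 6 to 86 with 1 library left out; the cause was not tested.

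With the replicate number as a block, 129 miRNAs passed, 122 of them among the 138, and 71 were higher and 58 lower. The block gave 81 seed families and 25 miRNAs that differed between subsets. The neonatal and adult TN groups share only number 1, and the correlations between same-numbered deviations were 0.017, 0.138 and -0.160 over the 3 pairs of groups, so the numbers were not taken to pair samples.

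The single neonatal TN library could not be left out, so nothing here shows how such libraries vary. At 10 CPM of the plain total a TN library holds 20.6 to 29.9 counts, and small differences at that level were not detectable.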
